A study of Mus musculus with 24 samples.

Results

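Complement is a cascade of plasma and tissue proteins that tags surfaces for uptake. Here 8 of its transcripts were followed in mouse cortex: C1qa, C1qb and C1qc, which encode the chains of the initiator C1q; C4b and C3, the components cleaved downstream of it; C3ar1 and Itgam, a receptor for a C3 fragment and a chain of the integrin that binds another; and Serping1, the inhibitor of the C1 proteases. They were found by gene name as 8 of the 43346 genes of a count table, and all 8 passed the filter on low counts.

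In brain the classical route begins when C1q binds a target and its attached proteases C1r and C1s cut C4 and C2. The enzyme so formed cuts C3, whose large fragment coats the target and is read by microglia through the integrin of Itgam and Itgb2, while the small fragment C3a signals through the receptor encoded by C3ar1. Microglia are the main brain source of C1q, astrocytes express C4b and much of the Serping1 transcript lies in astrocytes and cells of vessels and meninges. In the body as a whole, hepatocytes make most circulating C3.

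The libraries came from the cortex of 24 C57BL/6 mice, 6 in each of 4 groups, with 3 males and 3 females in each per the series text. Mice of the groups WT_control and WT_induced had the genotype TREM2-WT+/+; Cx3cr1CreER/+, and those of R47H_control and R47H_induced had TREM2-R47H+/+; Cx3cr1CreER/+. Induced mice received tamoxifen, and control mice received corn oil. All groups therefore carried both the TREM2 construct and CreER, a recombinase that acts only after tamoxifen, placed under Cx3cr1, a gene of microglia that related myeloid cells also use. TREM2 is a lipid receptor of microglia, and R47H is its variant linked to the risk of Alzheimer's disease. The sources used here give neither age nor the sex of each mouse, and no group given tamoxifen without the recombinase was analysed here, so tamoxifen and induction cannot be told apart.

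Total counts ran from 27933505 to 56082520 per library. Summed over their marker lists, neuronal transcripts held 7767 to 8694 CPM (reads scaled to a common library size, TMM-adjusted) and homeostatic microglial transcripts 285 to 408 CPM, so the cells named by the tissue label were represented. Trem2 itself had a mean of 6.40 ± 0.367 CPM in WT_control and 6.61 ± 1.43 in WT_induced (SD, n = 6 each). It had 7.89 ± 0.974 CPM in R47H_control and 6.62 ± 0.534 in R47H_induced, and passed the test in no comparison. WT_induced replicate 6 stood above all other 23 libraries for each of the 8 complement transcripts, and values that change most without it are given both ways.

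The C1q genes lie side by side on the minus strand of chromosome 4 (mm10), C1qb at chr4:136880129-136886187, C1qc at chr4:136889804-136893065 and C1qa at chr4:136895917-136898803, each with 3 exons in its longest coding transcript. Because the levels of these chains moved together from library to library, the stretch before the start of C1qb and of C1qc is shown, 5′ to 3′ on the minus strand, from RefSeq (GRCm38.p6). The C1qb stretch is chr4:136886201-136886450. The C1qc stretch, chr4:136893066-136893164, was cut where the first GENCODE exon begins. Capitals mark a match to the PU.1 motif GAGGAAGT, read on either strand; PU.1 is a transcription factor of myeloid cells.
C1qb: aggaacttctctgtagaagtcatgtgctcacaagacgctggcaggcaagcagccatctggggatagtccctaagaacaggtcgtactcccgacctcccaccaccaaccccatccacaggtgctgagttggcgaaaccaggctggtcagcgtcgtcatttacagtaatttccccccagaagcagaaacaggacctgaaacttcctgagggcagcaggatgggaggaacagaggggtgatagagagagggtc
C1qc: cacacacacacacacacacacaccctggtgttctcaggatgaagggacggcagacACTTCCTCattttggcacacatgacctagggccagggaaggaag

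Promoter windows of 300 bases were held for 5 of the 8 genes (C1qb, C1qc, C3, C3ar1 and Itgam). The PU.1 letters occurred in 1 of these 5, that of C1qc, on the strand opposite to the gene and starting 195 bases before the RefSeq start, and in 3.2% of all 32851 windows. The core of the interferon-stimulated response element, GAAANNGAA, was in none of the 5 and in 8.56% of all windows. The gamma-activated site, TTCNNNGAA, was likewise in none of the 5 and in 8.3% of all windows. These matches describe letters only.

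Compared per length of the longest coding transcript, the 8 transcripts fell into 3 ranges in WT_control cortex. C1qb stood at 17.7 ± 1.06 RPKM (CPM per kilobase; SD, n = 6), C1qa at 15.4 ± 1.35 and C1qc at 14.0 ± 1.44. The C1qa and C1qc levels differed by less than their SDs added together, as did those of C1qb and C1qa. Itgam at 4.01 ± 0.285 RPKM, Serping1 at 3.00 ± 0.263 and C4b at 2.80 ± 0.284 formed the middle range, with the last pair not apart beyond their spread. C3ar1 at 0.394 ± 0.0766 RPKM and C3 at 0.346 ± 0.363 were lowest and also overlapped. The deposited gene length of C1qc, 1931 bases, is longer than its longest coding transcript of 1203 bases. On the deposited length C1qc would therefore sit at 8.75 ± 0.897 RPKM, below its partner chains. On deposited lengths Itgam would sit at 2.95 ± 0.210 RPKM, C4b at 2.65 ± 0.269 and Serping1 at 2.28 ± 0.200. The order within the middle range thus depends on the length used.

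**Figure D1:**
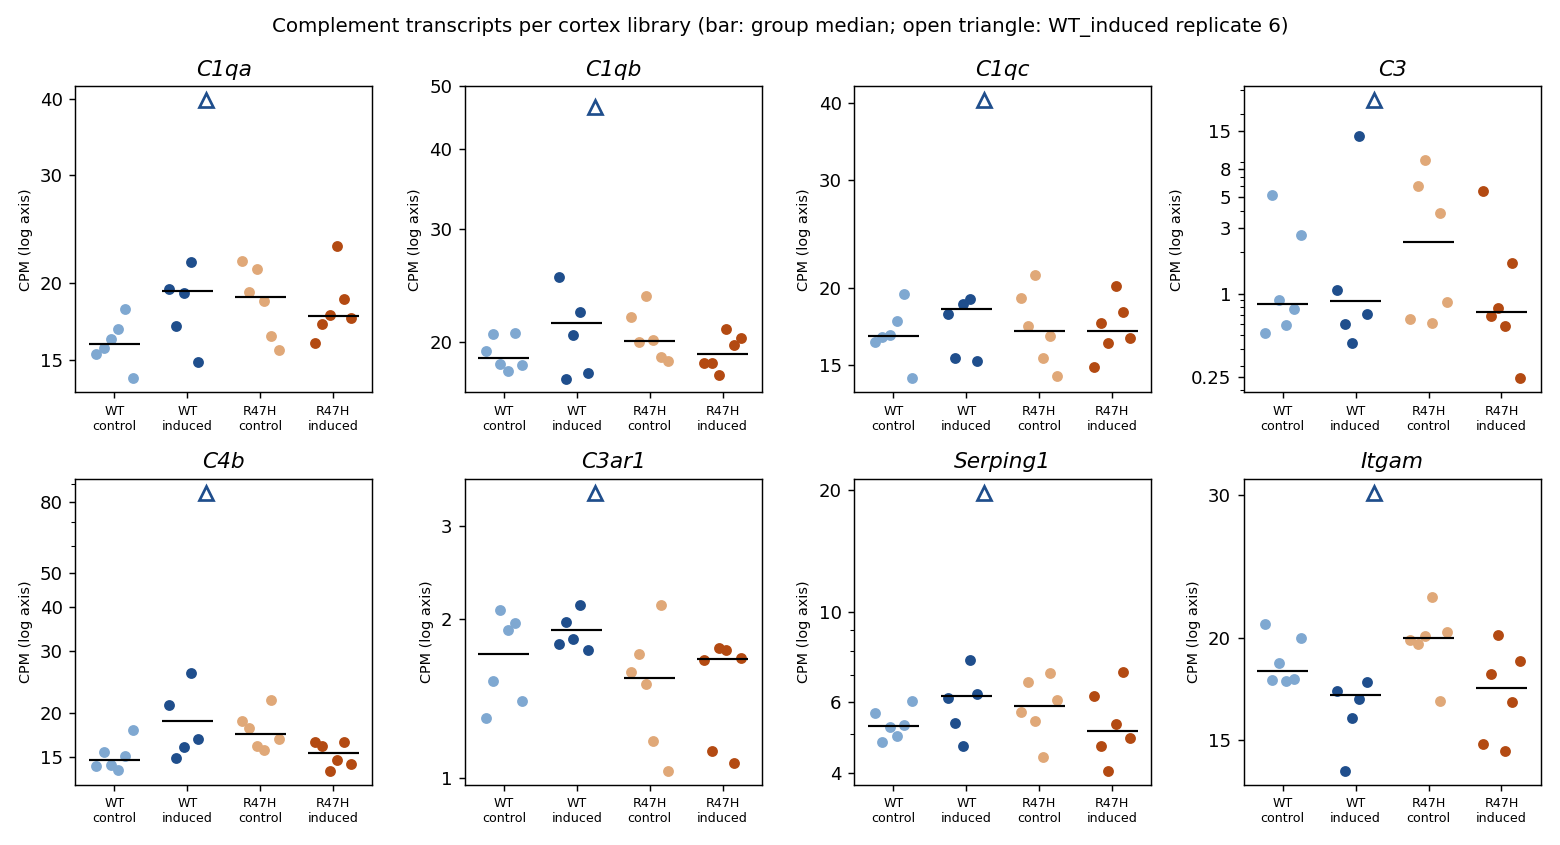
Level of each of the 8 complement transcripts in every library, in CPM on a log axis, by group; circles are single libraries, bars are group medians, and the open triangle is WT_induced replicate 6. The triangle lies above all other libraries in every panel. Without it the groups still overlap for each gene, except Itgam between WT_control and WT_induced, where the gap is narrow. The share of all genes whose ranges part in this way was not counted.

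None of the 8 transcripts was called (adjusted p below 0.05 over 19678 tested genes, edgeR's quasi-likelihood test with Benjamini-Hochberg adjustment) in any of the 5 comparisons. For the induction in WT mice this was 0 of 8 against a background of 0% of all genes, with 1545 genes at an unadjusted p below 0.05. For the induction in R47H mice the background was also 0%, with 1006 such genes, and for the difference between both inductions again 0%, with 1562. In those 3 comparisons DESeq2 called none of the 8 and 2, 2 and 3 genes in all, and limma-voom called none of the 8. For R47H against WT the background was higher, 5.8% of genes in induced mice and 5.74% in control mice, with 3952 and 4037 genes at an unadjusted p below 0.05. DESeq2 called 1 of the 8, C4b, in induced mice and none in control mice, while limma-voom called none in either.

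The direction of the fitted values nevertheless differed by comparison. In WT mice the log2 fold change of induction was positive for 7 of 8 transcripts, with a median of 0.42 against 0.00 over all tested genes. That median was 0.24 with a covariate for the share of rRNA-like reads and 0.25 with limma-voom and sample weights, with 7 of 8 positive in both. It was 0.06, with 6 of 8 positive, without the 9 libraries with Alb, the albumin gene, at 10 CPM or more. WT_induced replicate 6 was among those 9. In R47H mice the log2 fold change of induction was negative for 8 of 8, with a median of -0.11. It was instead positive for 3 of 8 with library totals as the scale. With a covariate it was positive for 6 (share of rRNA-like reads) and for 7 (homeostatic microglial transcripts). In induced mice R47H lay below WT for 8 of 8, with a median of -0.45. However, 1 of 8 was positive with sample weights, and 3 of 8 without those 9 libraries (median -0.14). In control mice R47H lay above WT for 7 of 8, with a median of 0.12, but for 6 of 8 with library totals, 4 with the microglial covariate and 2 with that for rRNA-like reads. Each group enters more than 1 of these comparisons, so they are not independent of one another. Without WT_induced replicate 6 the median was 0.17 for the induction in WT mice and -0.13 for R47H against WT in induced mice, with 7 of 8 and 1 of 8 positive.

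**Figure D2:**
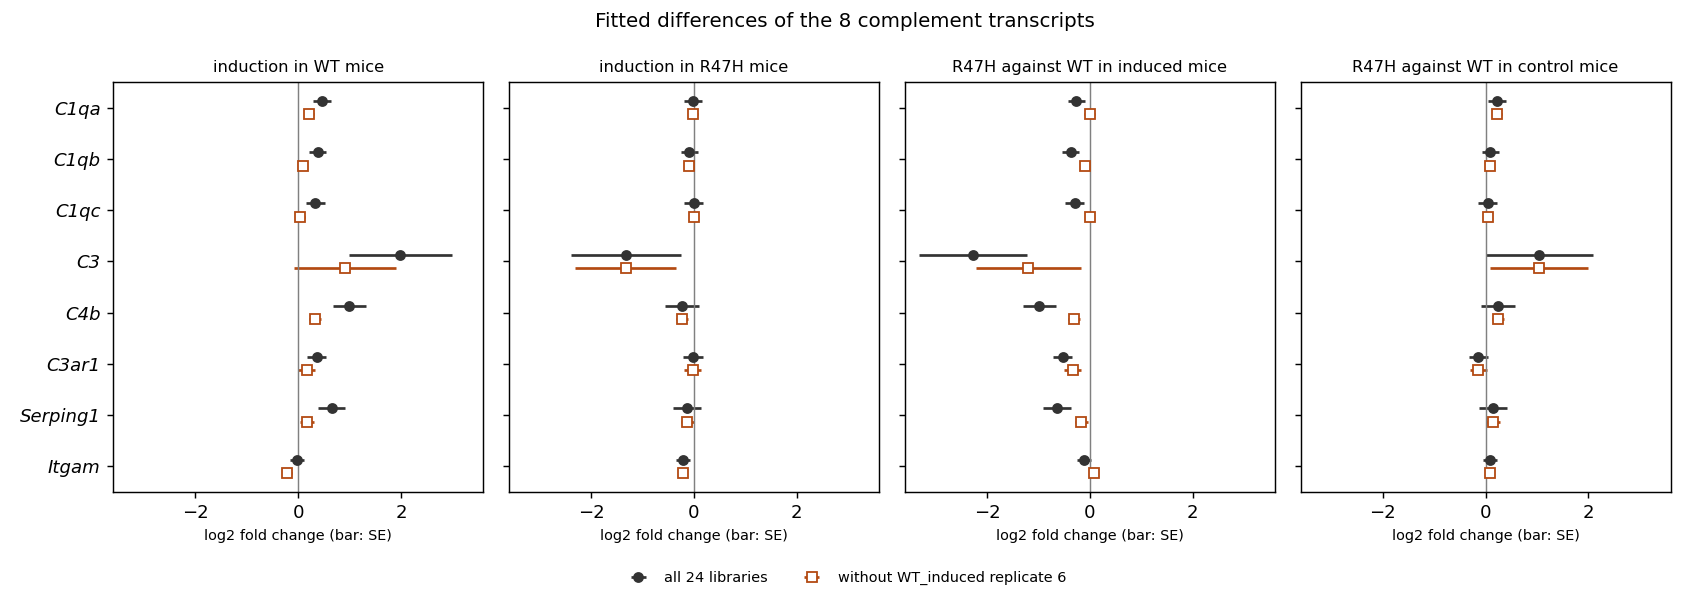
Fitted log2 fold change of each transcript (x axis, bars are the SE of the fit) in 4 comparisons, with all 24 libraries (filled circles) and without WT_induced replicate 6 (open orange squares). Leaving out that library moves the values of the WT induction and of R47H against WT in induced mice toward 0 for most transcripts, as for C4b from 0.99 to 0.33 in the WT induction, but moves Itgam there away from 0, from -0.01 to -0.21, and leaves the medians of the other 2 panels at -0.11 and 0.12.

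C1qa, the A chain, held 14.0 to 18.1 CPM in WT_control (median 15.9) and 14.9 to 39.7 in WT_induced (median 19.4). In R47H_control it held 15.5 to 21.7 CPM (median 19.02) and in R47H_induced 15.98 to 23.03 (median 17.7). WT_control was the lowest group by median, and 4 of 6 WT_induced and 4 of 6 R47H_control libraries lay above its highest library, yet the groups overlapped. The log2 fold change of induction in WT mice was 0.46 (SE 0.17, adjusted p = 0.523 with edgeR), and 0.21 without replicate 6. In control mice R47H lay 0.23 above WT on the log2 scale (SE 0.18, adjusted p = 0.498 with edgeR).

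C1qb, the B chain, held 18.1 to 20.7 CPM in WT_control (median 18.9) and 17.6 to 46.5 in WT_induced (median 21.4). Levels were 18.7 to 23.6 CPM in R47H_control (median 20.1) and 17.8 to 21.0 in R47H_induced (median 19.2). WT_induced spread to both sides of its control group, with 3 libraries above the highest control and 2 below the lowest. C1qc, the C chain, ran from 14.3 to 19.6 CPM in WT_control (median 16.7), 15.2 to 40.4 in WT_induced (18.5) and, in the R47H mice, 14.4 to 21.1 with corn oil (17.0) and 14.9 to 20.2 with tamoxifen (17.1). Only 1 WT_induced library, replicate 6, exceeded the highest C1qc control. The fitted WT inductions of 0.38 (SE 0.17) for C1qb and 0.33 (SE 0.18) for C1qc on the log2 scale became 0.10 and 0.04 without that library, and the differences of R47H from WT in induced mice, -0.37 and -0.29, became -0.10 and 0.00.

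The proportions of the 3 chains stayed narrow while their sum varied. C1qa made up 32.4% ± 1.65 of the C1q CPM (SD over 24 libraries), C1qb 36.3% ± 1.84 and C1qc 31.3% ± 1.33. In WT_induced replicate 6, where the sum reached 127 CPM, the shares were 31.4%, 36.7% and 31.9%, inside the range of the other libraries. Across the 24 libraries, Spearman's rho was 0.83 between C1qa and C1qc, 0.74 between C1qb and C1qc and 0.73 between C1qa and C1qb; these values share library depth and composition and are a description. C1q protein is assembled from all 3 chains.

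The C1q sum was also set against the summed CPM of 13 homeostatic microglial transcripts such as P2ry12, Tmem119 and Csf1r. It amounted to 16.6% ± 1.15 of that sum in WT_control (SD, n = 6), 20.8% ± 5.21 in WT_induced, 17.0% ± 1.75 in R47H_control and 18.1% ± 1.93 in R47H_induced. The 5 WT_induced libraries other than replicate 6 ran from 16.9% to 19.9%, and replicate 6 reached 31.1%. In that library C1q was therefore higher relative to the other microglial transcripts too, which were themselves at 408 CPM against 285 to 345 CPM in the other 23. In bulk tissue, fewer cells of a type and less RNA per cell cannot be told apart.

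**Figure D3:**
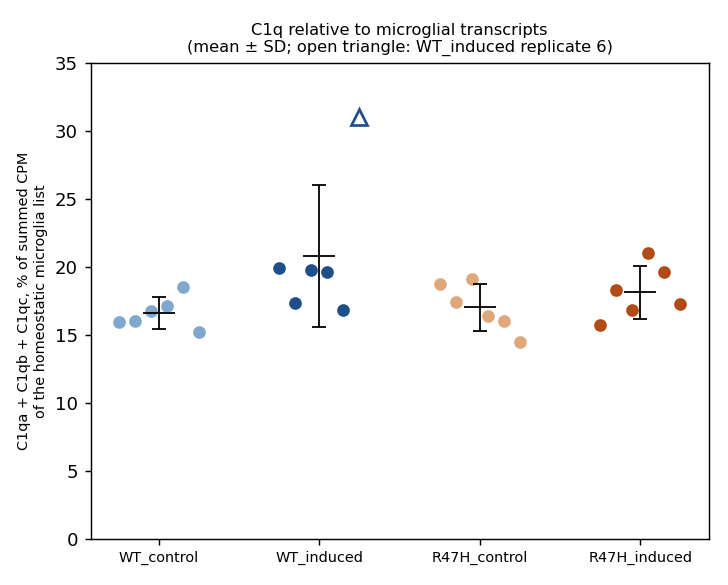
Sum of C1qa, C1qb and C1qc as a percentage of the summed CPM of the homeostatic microglia list (y axis), per library and group, with mean ± SD. All libraries but WT_induced replicate 6 (open triangle, 31.1%) lie between 14.5% and 21.0%, and the ranges of the groups overlap.

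The genes whose levels most resembled those of the C1q chains over the 24 libraries differed by chain. For C1qa they were Sepp1 (Spearman's rho 0.82), Tgoln1 (0.81) and Tmx2 (0.76), for C1qb Serf2 (0.77), Gfra2 (0.75) and Msn (0.74), and for C1qc Eya2 (0.72), Tmx2 (0.72) and Zdhhc12 (0.71). Without WT_induced replicate 6, 2 of the 3 stayed among the first 3 for C1qa, 3 for C1qb and none for C1qc.

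C4b (chr17:34728380-34743882, minus strand) encodes component C4, cut by the C1 proteases. Its levels were 13.7 to 17.9 CPM in WT_control (median 14.6) and 14.9 to 84.8 in WT_induced (median 18.9). They were 15.7 to 21.7 CPM in R47H_control (median 17.4) and 13.7 to 16.5 in R47H_induced (median 15.3). All 6 WT_induced libraries and all 6 R47H_control libraries lay above the WT_control median, and 3 R47H_induced libraries lay below the lowest library of either of those groups, although every pair of groups overlapped.

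In induced mice C4b was 0.98 lower with R47H than with WT on the log2 scale (-0.98, SE 0.32), with an adjusted p of 0.0823 in edgeR and 0.0312 in DESeq2. The value rested in large part on 1 library: without WT_induced replicate 6 it was -0.31 (SE 0.12, adjusted p = 0.137 with edgeR), and without WT_induced replicate 2 it was -1.12 (adjusted p = 0.0451 with edgeR). Over the other tools, filters and covariates its adjusted p ran from 0.0312 to 0.272. The induction in WT mice was 0.99 (SE 0.32, adjusted p = 0.492 with edgeR), or 0.33 (SE 0.12, adjusted p = 0.729) without replicate 6. The induction in R47H mice was -0.23 (SE 0.33), and the difference between both inductions -1.22 (SE 0.46, adjusted p = 0.576 with edgeR), or -0.56 (SE 0.16, adjusted p = 0.43) without replicate 6.

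Reads of C4b may be shared with C4a, a neighbouring copy (chr17:34809092-34823464, minus strand) that is annotated as a processed transcript. Their longest transcripts were 96.1% identical over 5367 aligned bases, and 35.2% of all 50-base windows of the C4b transcript occurred unchanged in C4a transcripts, falling to 16.5% of 100-base windows. The 60-base stretch of C4b coding sequence that differs most from C4a within a single exon is shown because reads there can tell the copies apart. It lies in exon 21 of C4b (chr17:34735430-34735489), with its counterpart in exon 21 of the C4a transcript (chr17:34816086-34816145), and is printed from GENCODE vM21 transcripts, 5′ to 3′ on the minus strand, with the 13 differing bases in capitals.
C4b: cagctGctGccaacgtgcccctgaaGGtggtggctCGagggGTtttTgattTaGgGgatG
C4a: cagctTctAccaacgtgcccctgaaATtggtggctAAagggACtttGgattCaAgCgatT

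C4a had 1.70 ± 0.432 CPM in WT_control (SD, n = 6), 1.22 ± 0.141 in WT_induced, 1.17 ± 0.184 in R47H_control and 1.12 ± 0.112 in R47H_induced. Its highest R47H_control library, at 1.28 CPM, overlapped with the lowest WT_control library at 1.21 CPM. It was lower with R47H than with WT in control mice (log2 fold change -0.54, SE 0.15, adjusted p = 0.027 with edgeR), while C4b was 0.24 higher (SE 0.33, adjusted p = 0.735). In WT_induced replicate 6, C4a stood at 0.897 times the median of the other 5 libraries of its group and C4b at 5.05 times. The sources used here do not say how reads matching both copies were counted.

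Outside the members, the gene most like C4b was Tapbp (Spearman's rho 0.87), also on chromosome 17, followed by Aim1 (0.77) and Itih2 (0.74). The member Serping1 was as close to C4b as Aim1, with a rho of 0.77. Without WT_induced replicate 6, Tapbp and Aim1 were still among the first 3 outside the members.

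C3 (chr17:57203970-57228136, minus strand), the component on which all routes of the cascade meet, varied more than any other of the 8 transcripts. It ran from 0.519 to 5.22 CPM in WT_control (median 0.838), 0.44 to 25.2 in WT_induced (0.887) and, in the R47H mice, 0.617 to 9.38 with corn oil (2.37) and 0.243 to 5.51 with tamoxifen (0.735). Each group held libraries near 1 CPM or below as well as libraries several times higher. Fitted log2 fold changes were accordingly large and uncertain: 1.99 (SE 1.01) for the induction in WT mice, -1.33 (SE 1.07) in R47H mice, -2.27 (SE 1.04) for R47H against WT in induced mice and 1.05 (SE 1.04) for the same contrast in corn oil mice, with adjusted p-values of 0.659, 0.9995, 0.226 and 0.622 in edgeR. Without WT_induced replicate 6, C3 was at 0.92 (SE 0.99) for the induction in WT mice and at -1.20 (SE 1.02) for R47H against WT in induced mice.

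High C3 went with transcripts of the liver. The 3 genes most like C3 were Gc (Spearman's rho 0.91), Serpina3k (0.90) and Mug1 (0.89), all plasma protein genes of hepatocytes. In the 15 libraries with Alb, the albumin gene, below 10 CPM, C3 ran from 0.243 to 1.06 CPM, and the group means were 0.697, 0.704, 0.714 and 0.575 CPM in the order WT_control, WT_induced, R47H_control, R47H_induced. In 8 of the 9 libraries with Alb at 10 CPM or more, which came from all 4 groups, C3 ran from 1.68 to 13.9 CPM and stood at 0.133 to 0.215 of the Alb level. The exception was WT_induced replicate 6, with 25.2 CPM of C3 beside 20.4 CPM of Alb.

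A list of 19 hepatocyte transcripts was drawn up after this pattern was seen. It includes Gc, Serpina3k and Mug1, so its likeness to C3 is partly built in. The summed level of the list was 1.81 to 151 CPM per library. All 19 were above 0 in log2 fold change for the induction in WT mice (median 1.0001) and for R47H against WT in control mice (median 1.24). For the induction in R47H mice all 19 were below 0 (median -0.73). The 19 values come from the same libraries and are not independent of one another. None of the 19 was called in any of these comparisons. With the summed list as a covariate, the C3 differences were 1.12 (SE 0.48) for the induction in WT mice, or 0.10 (SE 0.24) with WT_induced replicate 6 also left out, -0.58 in R47H mice and -0.05 for R47H against WT in control mice. Under that setting C3 was called in induced mice, 1.75 lower with R47H on the log2 scale (-1.75, SE 0.48, adjusted p = 0.0348 with edgeR), and with replicate 6 also left out the value was -0.70 (SE 0.24, adjusted p = 0.0968). Over all settings tried the adjusted p of C3 ran up to 0.703, the value without the 9 libraries rich in Alb. The part of liver transcripts in the C3 levels was not tested beyond these values.

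**Figure D4:**
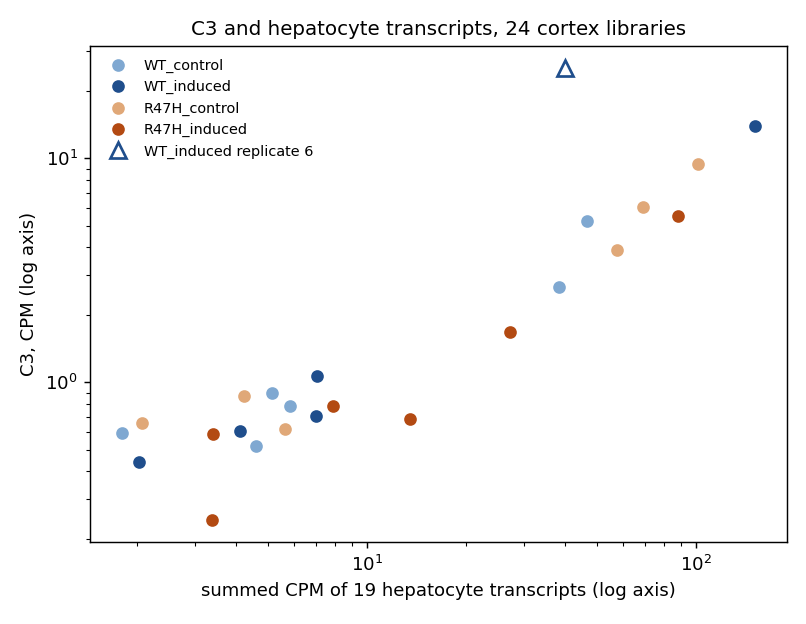
C3 in CPM (y axis, log) against the summed CPM of 19 hepatocyte transcripts (x axis, log) in the 24 libraries, coloured by group. The list includes Gc, Serpina3k and Mug1, the genes most like C3. Libraries with 13.6 CPM of the list or less hold C3 at 0.243 to 1.06 CPM, those with more of it hold more C3 in every group, and WT_induced replicate 6 (open triangle) lies above the others at 25.2 CPM.

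C3ar1 (chr6:122847138-122856161, minus strand), the C3a receptor gene, was expressed at a low level, with 32 to 152 reads per library. It ran from 1.30 to 2.08 CPM in WT_control (median 1.71), 1.75 to 3.46 in WT_induced (1.90) and, in the R47H mice, 1.03 to 2.12 with corn oil (1.55) and 1.06 to 1.76 with tamoxifen (1.68). All 6 WT_induced libraries lay above the WT_control median, and 5 of 6 R47H_induced libraries lay below the lowest WT_induced library. In induced mice the log2 difference of R47H from WT was -0.52 (SE 0.18, adjusted p = 0.0924 with edgeR), and -0.33 (SE 0.17, adjusted p = 0.279) without WT_induced replicate 6. The induction was 0.36 (SE 0.18) in WT mice, or 0.17 without that library, and -0.02 (SE 0.19) in R47H mice.

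The closest patterns to C3ar1 were those of Nxph1 (Spearman's rho 0.75), Lamtor3 (0.74) and Ano2 (0.73), none of which stayed among the first 3 without WT_induced replicate 6. C3ar1 ran against the summed level of 8 choroid plexus transcripts such as Ttr, with a rho of -0.61 over 24 libraries and -0.58 over the 23 others. It went with the brain endothelial list to a like degree (0.58, or 0.53 over those 23) and less with the astrocyte and oligodendrocyte lists (0.45 each over 24). The choroid plexus list ranged from 19.1 to 632 CPM between libraries, with a median of 173 CPM in WT_induced and 320 CPM in R47H_induced. The part of these lists in the C3ar1 values was not tested.

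Itgam (chr7:128062640-128128160, plus strand) encodes the alpha chain of complement receptor 3, also known as CD11b. Levels were 17.7 to 20.8 CPM in WT_control (median 18.2), 13.7 to 30.2 in WT_induced (17.0) and, in the R47H mice, 16.8 to 22.5 with corn oil (20.01) and 14.5 to 20.2 with tamoxifen (17.4). Unlike the other 7 transcripts, Itgam was below the lowest control in 5 of 6 WT_induced libraries, the exception being replicate 6. Without that mouse the WT_induced range of 13.7 to 17.6 CPM ended just under the lowest WT_control library, at 17.7 CPM. This gap appears only with that mouse left out. The share of all genes whose ranges part in this way was not counted, and 0% of all genes were called in this comparison. Its log2 induction in WT mice was -0.01 (SE 0.14) with all libraries and -0.21 (SE 0.08, adjusted p = 0.783 with edgeR) without replicate 6, a value close to the -0.21 (SE 0.14) of the R47H mice. None of these passed the test.

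Itgam also did not follow the other members across libraries, with Spearman's rho between -0.32 (C3ar1) and 0.11 (C1qb), or between -0.50 and -0.015 for the same pair of genes without WT_induced replicate 6. It rose and fell with the homeostatic microglia list, with a rho of 0.61, or 0.55 without WT_induced replicate 6. This was not particular to Itgam, as C1qb had a rho of 0.59 with that list, or 0.54 without replicate 6. Its nearest genes were Eif4e3 (0.68), Scamp2 (0.67) and Lag3 (0.65), none of which stayed among the first 3 without that library. In GENCODE vM21 68.7% of the exonic bases of Itgam were overlapped by the model Gm49368, which was absent from the count table by name, and Itgam ended at a different position there. No exon of the other 7 genes was overlapped.

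Serping1 (chr2:84765387-84775444, minus strand), the brake on C1r and C1s, ran from 4.76 to 6.02 CPM in WT_control (median 5.22) and 4.67 to 19.7 in WT_induced (6.21). In R47H_control it ran from 4.38 to 7.05 CPM (median 5.86) and in R47H_induced from 4.05 to 7.10 (5.09). The ranges overlapped between all groups, with 4 of 6 WT_induced libraries above the highest WT_control library. The log2 induction in WT mice was 0.65 (SE 0.27, adjusted p = 0.573 with edgeR), or 0.18 (SE 0.13) without replicate 6, and the difference of R47H from WT in induced mice was -0.63 (SE 0.27, adjusted p = 0.18), or -0.16 (SE 0.13) without it.

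The levels of Serping1 went with those of C4b (Spearman's rho 0.77) and C3 (0.61), and C3 with C4b (0.64). Its nearest genes were Cnn2 (0.82), Dcn (0.79), a collagen-binding proteoglycan of fibroblasts, and Itih2 (0.77), and all 3 stayed the nearest without WT_induced replicate 6. Serping1 had a rho of 0.52 with 8 meningeal fibroblast transcripts, in part built in because Dcn is among them, and 0.49 with the hepatocyte list. How far those cells contribute to the Serping1 level was not tested.

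The fitted positive differences in WT mice were smaller without WT_induced replicate 6 for each of the 7 transcripts that had one. Against the median of the other 5 WT_induced libraries it held 35.4 times as much C3, 5.05 times C4b, 3.21 times Serping1, 2.26 times C1qb, 2.23 times C1qc, 2.06 times C1qa, 1.89 times C3ar1 and 1.79 times Itgam. For C3 that median, 0.71 CPM, came from a library with 2.05 CPM of Alb, against 20.4 CPM of Alb in replicate 6. The only other WT_induced library with Alb at 10 CPM or more was replicate 4, at 81.5 CPM. It held 13.9 CPM of C3, against 25.2 CPM in replicate 6. Among 42 other complement genes with a median of at least 0.1 CPM in the other 5 WT_induced libraries, 9 were above all other 23 libraries. They included the C1 proteases C1s1 (8.07 times) and C1ra (4.40 times), C2 (2.23 times), Cfb (1.94 times), which is the alternative-route counterpart of C2, and the integrin chains Itgax (19.1 times) and Itgb2 (3.33 times). By contrast, 25 of the 42 lay within 0.8 to 1.2 times, among them Clu (0.971), Vtn (0.919), Masp1 (1.04), Masp2 (0.984) and C1qbp (1.01).

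**Figure D5:**
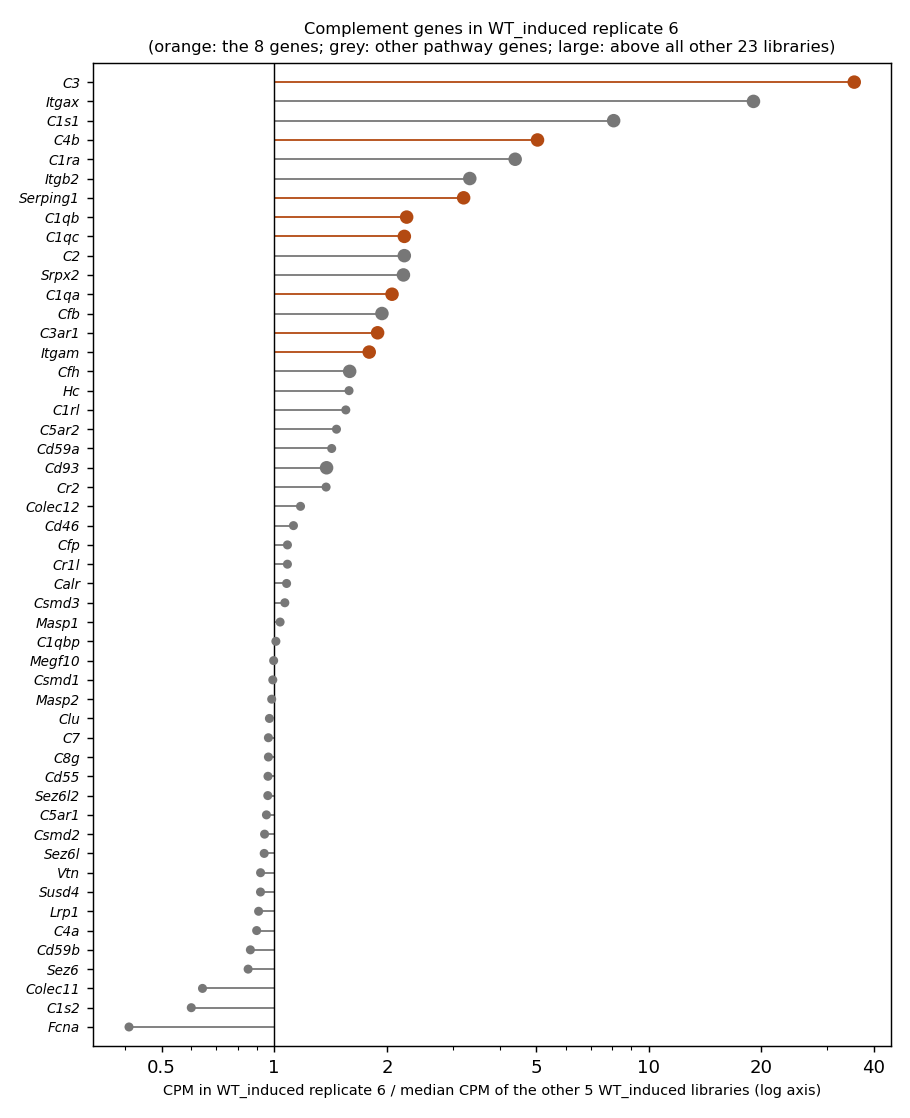
CPM in WT_induced replicate 6 divided by the median CPM of the other 5 WT_induced libraries (x axis, log) for 50 complement genes with a median of at least 0.1 CPM; orange marks the 8 transcripts, grey the other pathway genes, and large points the 17 genes above all other 23 libraries. C3 leads at 35.4 times, over a median of 0.71 CPM from a library with Alb below 10 CPM. Of the 42 other genes, 25 lie within 0.8 to 1.2 times.

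Markers of other cells stood apart in the same library. All 17 interferon-response transcripts tested were above the other 23 libraries, with a sum of 313 CPM against 84.3 to 128. The T cell genes Cd3e, Cd3d, Cd3g and Cd8a held 1.34, 1.28, 1.37 and 1.55 CPM against at most 0.21 elsewhere, and 9 of 13 lymphocyte markers were highest there. Of 9 blood monocyte and neutrophil markers, Ccr2 (8.64 CPM), Plac8 (3.94 CPM) and Ly6c2 (2.62 CPM) were highest there, while the neutrophil genes Ly6g, Cxcr2 and Retnlg were at 0 and S100a8 at 0.0456 CPM. The reactive astrocyte list summed to 577 CPM against 167 to 301, with 9 of its 13 genes highest there. Gfap (267 CPM) and H2-D1 (176 CPM) held the largest parts of that sum, while Serpina3n, Lcn2, Osmr and S1pr3 were higher in other libraries. The list of border-associated macrophages was lower, 18.4 CPM against 22.1 to 31.6, though Ms4a7 was highest there. The part of these cells and responses in the complement levels was not tested.

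Beyond the 8, 58 complement genes had been listed, of which 41 were tested. In the inductions and in their difference none was called. The lowest p-values for the induction in WT mice belonged to C4a (-0.48 on the log2 scale), the complement receptor Cr2 (-0.58) and the protease gene C1s1 (1.48, or 0.44 without WT_induced replicate 6), and those for the induction in R47H mice to Cd93 (-0.26), the C5a receptor C5ar1 (-0.80) and Vtn (-0.13). For the difference of inductions they were Cd93 (-0.54), Cr2 (0.72) and the properdin gene Cfp (0.42), with adjusted p-values of 0.433 to 0.607 in edgeR.

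In induced mice 5.8% of all 19678 tested genes were called, 633 lower and 509 higher with R47H. Near that share, 3 of the 41 complement genes were lower with R47H and none was higher. They were Cd93, a receptor of endothelial and myeloid cells once described as a C1q receptor (-0.37 on the log2 scale, SE 0.10, adjusted p = 0.0248 with edgeR), the protease gene C1ra (-1.07, SE 0.31, adjusted p = 0.0447) and C2 (-0.53, SE 0.16, adjusted p = 0.0467). By step of the cascade, 2 of 10 tested initiation genes and 1 of 11 receptors fell, and none of 5 alternative and terminal genes or 15 regulators. These counts are too small to set 1 step apart from another. Without WT_induced replicate 6 the values of Cd93, C1ra and C2 were -0.28, -0.39 and -0.27, with adjusted p-values of 0.0792, 0.09 and 0.138 in edgeR. None of these genes was then called, while 1 regulator, Srpx2, was called higher (0.58, SE 0.16, adjusted p = 0.0329 with edgeR). C1ra ran from 0.81 to 0.925 CPM in R47H_induced and from 0.906 to 5.06 in WT_induced. Cd93 ran from 4.603 to 5.42 CPM in R47H_induced and from 5.19 to 8.53 in WT_induced, and C2 from 2.10 to 3.03 and from 2.76 to 6.59 CPM. The ranges of all 3 genes overlapped at their edges.

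In control mice 5.74% of all 19678 tested genes were called, 599 lower and 530 higher with R47H. Near that share, 2 of the 41 complement genes were lower with R47H and none was higher. They were C4a, described above, and Csmd1, a complement inhibitor expressed by neurons, which was slightly lower (-0.12 on the log2 scale, SE 0.03, adjusted p = 0.0323 with edgeR), from 96.6 ± 4.37 CPM in WT_control to 89.1 ± 3.91 in R47H_control (SD, n = 6 each). Cfp came next without passing the test (-0.37, SE 0.13, adjusted p = 0.0806 with edgeR). Over the 41 tested genes the median log2 fold change was -0.05 in induced and -0.02 in control mice, against 0.00 over all genes in both.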

How the data were processed

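Poly-A RNA libraries of mouse cortex were prepared with the TruSeq RNA kit v2 per the labels' protocols, which does not mark strand. The authors deposited raw counts of reads per gene, with each gene's length in bases, using mm10, featureCounts 1.5.1 and STAR 2.5.2b per the submitters' processing notes. The sources used here give neither counting options nor the gene annotation's release. Groups come from the genotype and treatment labels, and 24 libraries were used with no pairing. Each library is taken as 1 mouse, as the series text counts 6 mice per group.

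Counts of 19678 genes passing filterByExpr were scaled by TMM and fitted once over all libraries in R 4.3.3 by the quasi-likelihood F-test of edgeR 4.0.16 in its robust form. The 5 comparisons are the induction in WT mice and in R47H mice, the difference of both inductions, and R47H against WT in induced and in control mice. Adjustment (Benjamini-Hochberg) ran over all tested genes. CPM use the TMM-scaled library total, and RPKM divide CPM by length in kilobases. Similarity of pattern is Spearman's rho of log2 CPM (prior count 0.5). Members, gene lists and tests were chosen with earlier results of these data known. Genes named are the 8 members, C4a, the 3 nearest genes per member and pathway genes called or, where fewer than 3 were, the 3 with the lowest p. Nearest genes were sought among tested genes outside the members, without symbols of Gm plus digits or ending in Rik. Other genes named, such as markers and ratios in WT_induced replicate 6, were chosen after their values were seen, as were the hepatocyte list and the settings that use it or Alb.

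Alternatives were RLE size factors, library totals, 2 other filters (at least 0.5 CPM in 6 libraries, or none), DESeq2 1.42.0, limma-voom 3.58.1 with and without sample weights, the 12 libraries compared, a threshold of 0.1, single libraries left out, and 1 covariate at a time: the homeostatic microglia list, or the rRNA-like share, meaning the percentage of reads on 3 rRNA-like genes (11.5% to 24.4% per library). The procedure was tested on simulated data. GENCODE vM21 (mm10) gave exons and transcripts, and RefSeq gave promoter windows. A comparison of the encoded proteins was not made.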

Additional observations from a re-analysis of the deposited data

Results flagged for a closer look

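Within groups of 6 libraries, 1 library was set far from its nearest neighbour (a gap above Dixon's 95% critical value, relative to the group's range) in 8 of the 32 combinations of group and transcript; about 1 in 20 such groups is flagged by chance alone. In 7 of them the library was WT_induced replicate 6, with C1qa at 39.7 CPM, C1qb at 46.5, C1qc at 40.4, C4b at 84.8, C3ar1 at 3.46, Serping1 at 19.7 and Itgam at 30.2 CPM, where the next library of the group had 21.7, 25.3, 19.2, 26.0, 2.12, 7.62 and 17.6 CPM. The C3 level of that library, 25.2 CPM, was not flagged because WT_induced replicate 4 had 13.9 CPM. The 7 values come from 1 mouse and are not independent of one another. The remaining case was C3 in R47H_induced replicate 1, at 5.51 CPM beside 1.68 in the next library, in a library with 33.3 CPM of Alb.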

How the results depend on the processing

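No paired analysis was possible because the labels give no replicate numbers shared between groups. None of the settings called a member in the inductions, their difference or the control mice. In induced mice, 2 members passed a threshold of 0.1, and 1 was called by DESeq2 (C4b), 1 with the hepatocyte list as a covariate (C3) and 1 with that covariate and WT_induced replicate 6 left out (C4b, -0.32, SE 0.09, adjusted p = 0.0354 with edgeR); leaving out single libraries gave 0 to 1. Of 512 member values under other settings 466 kept their sign and 46 did not, and of 960 values with 1 library left out 22 changed sign; the cause was not tested. C3 had 11 to 1104 reads per library and C3ar1 32 to 152.

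Genes called in all moved as follows. For the induction in WT mice they were 2 with DESeq2, 13 with the homeostatic microglia list as a covariate and 1 without the 9 libraries with Alb at 10 CPM or more (WT_induced replicate 6 among them), and 0 to 1 with single libraries left out. For the induction in R47H mice they were 2 with DESeq2, 1 with the 12 libraries compared, 1 with the homeostatic list and 3 with replicate 6 left out and the hepatocyte list as a covariate, and 0 to 2 with single libraries left out. For the difference they were 3 with DESeq2 and 1 without the Alb libraries, and 0 to 1 with single libraries left out. For R47H against WT in induced mice they were 1853 at a threshold of 0.1 and 585 without the Alb libraries, and 875 to 1156 with single libraries left out. In control mice they were 1953 at 0.1, 451 with a covariate for the rRNA-like share and 420 without the Alb libraries, and 823 to 1260 with single libraries left out.

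Signs turned, on the log2 scale, as follows. With library totals, the induction in R47H mice was 0.021 for C1qa, 0.046 for C1qc and 0.029 for C3ar1, and C1qc in control mice was -0.013. With that covariate for rRNA-like reads, the induction in R47H mice was 0.16 for C1qa, 0.084 for C1qb, 0.19 for C1qc, 0.14 for C4b, 0.18 for C3ar1 and 0.13 for Serping1, the difference was 0.032 for C1qc, and the control mice had -0.028 for C1qa, -0.14 for C1qb, -0.21 for C1qc, -0.29 for C4b and -0.23 for Serping1. With the homeostatic list, the induction in R47H mice was 0.25 for C1qa and C1qb, 0.31 for C1qc, 0.15 for C3, 0.36 for C4b, 0.16 for C3ar1 and 0.31 for Serping1, that in WT mice 0.026 for Itgam, and the control mice had -0.029 for C1qb, -0.081 for C1qc and -0.011 for Serping1. With limma-voom, C1qc was 0.0086 in the R47H induction. With sample weights, that induction was 0.028 for C1qc and C3ar1, Itgam in induced mice 0.049 and C1qc in control mice -0.0074. With the hepatocyte list, the induction in R47H mice was 0.019 for C1qc and 0.0057 for C3ar1, and C3 in control mice was -0.054; with replicate 6 left out as well, Itgam in induced mice was 0.080.

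Without the Alb libraries, C1qc was -0.058 in the WT induction, the R47H induction was 0.017 for C1qa, 0.11 for C1qc and 0.32 for C3ar1, the difference was 0.16 for C1qc and 0.29 for C3ar1, the induced mice had 0.098 for C1qa, 0.064 for C1qc and 0.14 for Itgam, and C1qc in control mice was -0.10. With single libraries left out, ranges that crossed 0 were -0.21 to 0.061 for Itgam in the WT induction, -0.11 to 0.012 for C1qa, -0.056 to 0.061 for C1qc and -0.11 to 0.10 for C3ar1 in the R47H induction, -0.19 to 0.078 for Itgam in induced mice and -0.021 to 0.094 for C1qc in control mice.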
